A study of Mus musculus with 6 samples.

Results

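The 10 genes described here encode interferon-induced GTPases: 8 guanylate-binding proteins (Gbp2 to Gbp9) and 2 immunity-related GTPases, Igtp (also called Irgm3) and Irgm1. They were chosen by their names, with earlier results of these data known, and all 10 were found among the 48440 genes of the count table and among the 13314 genes with enough reads to be tested. RNA was measured in primary CD4+ T cells from spleen and lymph nodes of wild-type mice. Antibodies against CD3 and CD28 fixed to the plate had activated the cells over 3 days, and growth in IL2 for 5 days without antibody followed. One group of 3 libraries was then left at rest (unstimulated), and the other group of 3 was exposed to anti-CD3/CD28 for another 4 hours (stimulated). All 6 libraries therefore come from cells that had met the receptor stimulus before, and the resting group is not naive. The study calls the replicates biological, but the labels do not say whether they came from separate mice or cultures. The p-values therefore weigh the difference between the groups only against the spread of these libraries, and part of that spread may be technical.

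Guanylate-binding proteins are large GTPases of the dynamin superfamily that gather on the membranes of intracellular pathogens and their vacuoles. The immunity-related GTPases are smaller. Some are effectors that load onto vacuoles, whereas Irgm1, Irgm2 and Igtp form a regulatory branch that keeps the effectors away from the cell's own membranes. Interferon gamma switches most of these genes on through its receptor and the kinases Jak1 and Jak2. It acts at the gamma-activated site (GAS) and, by way of Irf1, at the interferon-stimulated response element (ISRE). Type I interferons act on the ISRE, with Irf9 among the factors that bind it. The genes are best known from macrophages, and in CD4+ T cells Irgm1 is known for its part in survival after exposure to interferon gamma.

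Total counts ran from 29897720 to 30252923 reads per library. Levels are normalised read counts per 1000000 reads (CPM), on library sizes scaled by the trimmed mean of M-values (TMM), and changes are stimulated over unstimulated. The 8 CD4 T cell markers (Cd3e, Cd3d, Cd3g, Trac, Trbc2, Cd4, Cd28 and Lck) were abundant in every library, with a sum of 4250 to 4475 CPM at rest and 2037 to 2065 CPM after stimulation. Of the 10 macrophage and monocyte markers 7 stayed under 1 CPM in each library, and their sum lay between 3.96 and 4.996 CPM at rest and between 2.45 and 3.05 CPM after stimulation. The 5 NK cell and 5 neutrophil markers were all under 1 CPM in each library. The 6 dendritic cell markers summed to 1.38 to 2.32 CPM at rest and 5.83 to 7.97 CPM after stimulation, with Siglech and Clec9a at 0 reads throughout. Of the others Itgax rose 9.66-fold, Zbtb46 8.21-fold and Xcr1 2.38-fold, and Flt3 fell 2.17-fold (edgeR, adjusted p under 0.05 for each). The 7 B cell markers, nearly all Ighm, summed to 1403 to 2859 CPM at rest and 730.0 to 1281 CPM after stimulation. The CD8 T cell pair Cd8a and Cd8b1 summed to between 20.7 and 25.8 CPM in all 6 libraries. Cd8a rose 2.15-fold and Cd8b1 fell 1.26-fold (edgeR, adjusted p = 5.3e-05 and 0.0358). The 6 stromal and endothelial markers, mostly Pecam1, summed to 177 to 196 CPM at rest and 46.0 to 59.3 CPM after stimulation. Pecam1 fell 3.73-fold, whereas the scarce Col1a1 rose 2.17-fold (edgeR, adjusted p = 1.8e-07 and 0.0175). Col1a2 did not pass (edgeR, adjusted p = 0.283), and Pdgfra, Pdgfrb and Cdh5 had too few reads to be tested. The part of other cells in the levels below was not tested. In bulk RNA, fewer cells of a type and less RNA per cell cannot be told apart.

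The promoters show which elements these genes carry near their start. RefSeq promoters (GRCm38.p6) were at hand for 6 of the 10 genes: Gbp2, Gbp3, Gbp5, Gbp7, Igtp and Irgm1. The 250 bases upstream of the start were searched on both strands for the GAS, TTCNNNGAA, and the ISRE core, which is GAAA, any 2 bases and GAAA. Overlapping matches were all counted. All 6 genes had at least 1 ISRE core in a listed promoter, as did 3.46% of the 27025 genes with one, and 3 (Gbp5, Gbp7 and Igtp) had at least 1 GAS, as did 8.13% of those genes. Gbp3 has a further listed promoter in which neither was found. The stretches that hold the matches are printed 5′ to 3′ on the gene's strand, with the matched bases in capitals. Where the GENCODE M21 annotation places an exon on the stretch, only 30 bases are shown.
Gbp2: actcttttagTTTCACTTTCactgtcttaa
Gbp3: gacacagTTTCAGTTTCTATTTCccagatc
Gbp5: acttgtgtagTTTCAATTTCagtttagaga
Gbp7: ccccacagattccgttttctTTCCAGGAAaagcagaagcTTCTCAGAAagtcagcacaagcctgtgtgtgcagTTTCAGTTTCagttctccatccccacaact
Igtp: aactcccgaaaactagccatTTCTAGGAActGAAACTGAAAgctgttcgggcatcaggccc
Irgm1: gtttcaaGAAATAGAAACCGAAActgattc
These lie at chr3:142620594-142620623 (plus strand) for Gbp2, chr3:142559992-142560021 (plus) for Gbp3, chr3:142496759-142496788 (plus) for Gbp5, chr3:142530210-142530312 (plus) for Gbp7, chr11:58199491-58199551 (plus) for Igtp and chr11:48871428-48871457 (minus) for Irgm1. Gbp3 and Irgm1 each held 2 ISRE cores that overlap. The GAS matches of Gbp5 fall outside the printed bases. In Igtp the GAS and the ISRE core stand side by side, within 45 bases of the start. A match of letters is a description and does not show that a factor binds there. Over the tested genes with a listed promoter, 43.5% of the 324 with an ISRE core rose, against 39.9% of all 9663.

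All 10 GTPase genes rose after 4 hours of stimulation, and none fell. The test was edgeR's quasi-likelihood F-test at an adjusted p (Benjamini-Hochberg, over all genes) of 0.05, by which 38.4% of tested genes rose and 39.1% fell. The stimulated libraries lay above the unstimulated ones without overlap for all 10, where 39.4% of tested genes did so. The log2 fold changes ran from 0.22 for Gbp8 to 2.45 for Gbp6, with a median of 1.36 over the 10 genes against -0.04 over all tested genes. Tested against a 2-fold change with glmTreat, 5 genes passed (Gbp2, Gbp5, Gbp6, Igtp and Irgm1), where 17.4% of tested genes rose by more than that. Without unstimulated replicate 1 that number was 8, and with replicate 3 left out of both groups it was 3. Together the 10 genes took 0.113% ± 0.026 of all reads at rest and 0.314% ± 0.042 after stimulation (SD, n = 3), and their summed level was 920 to 1381 CPM and 2809 to 3718 CPM. Scaling by library size alone moved the median over all genes by -0.14. Under it the rise of Gbp8 did not pass, and the other 9 genes still rose.

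**Figure D1:**
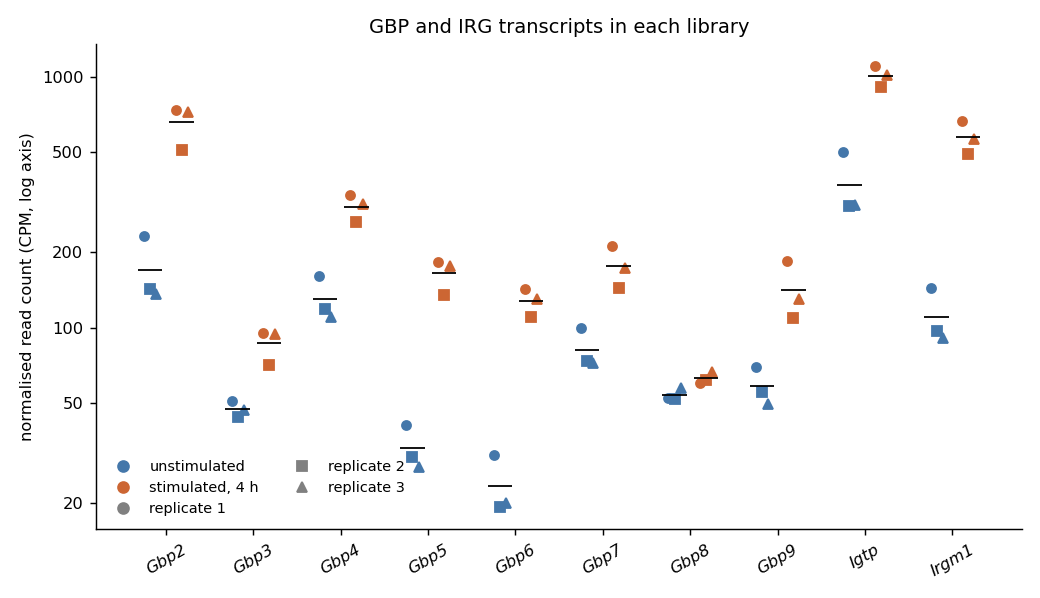
Normalised read counts (CPM, log axis) of the 10 GBP and IRG genes in each of the 6 libraries; blue marks are unstimulated and orange marks stimulated libraries, the marker shape gives the replicate, and black bars are group means. For every gene the stimulated libraries sit above the unstimulated ones, closest for Gbp8, where the lowest stimulated library was 1.05 times the highest unstimulated one.

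The GBP genes of chromosome 3 lie next to one another in the order Gbp5, Gbp7, Gbp3, Gbp2b and Gbp2. Gbp5, which is known for its link to inflammasome assembly (ENSMUSG00000105504, chromosome 3, 142493978 to 142522344 in GRCm38), stood at 40.7, 30.4 and 27.7 CPM in unstimulated replicates 1, 2 and 3 and at 183, 135 and 176 CPM in the stimulated ones. Replicate 1 was the highest at rest, and even the lowest stimulated library was 3.32 times that value. The rise was 4.998-fold (log2 fold change 2.32, SE 0.17; edgeR, adjusted p = 5.2e-06).

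The neighbouring gene Gbp7 (ENSMUSG00000040253, chromosome 3, 142530342 to 142550149) changed less. It was at 99.4, 73.3 and 72.4 CPM at rest and 211, 143 and 172 CPM after stimulation, a 2.15-fold rise (log2 fold change 1.10, SE 0.17; edgeR, adjusted p = 0.00052). Within each library the ratio of Gbp5 to Gbp7 reads was 0.383 to 0.415 at rest and 0.864 to 1.03 after stimulation, so each stimulated library had the higher ratio. These and the other ratios given here were chosen after the values were seen.

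Gbp3 (ENSMUSG00000028268, chromosome 3, 142560026 to 142573209) had the smallest spread at rest after Gbp8. Its level was 50.8, 43.8 and 46.95 CPM in the unstimulated and 94.8, 71.2 and 94.6 CPM in the stimulated libraries. Replicate 2 was the lowest stimulated library and still lay 1.40 times above the highest resting one. The rise was 1.84-fold (log2 fold change 0.88, SE 0.12; edgeR, adjusted p = 0.00011).

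Gbp2, the most abundant of the GBP transcripts and a long-used marker of interferon gamma action (ENSMUSG00000028270, chromosome 3, 142620602 to 142638008), stood at 231, 143 and 137 CPM at rest and 737, 513 and 724 CPM after stimulation. The spread was wide in both groups, since unstimulated replicate 1 and stimulated replicate 2 stood apart from the other libraries of their groups. The rise was 3.86-fold (log2 fold change 1.95, SE 0.24; edgeR, adjusted p = 0.00027), and 4.71-fold without unstimulated replicate 1. Between Gbp3 and Gbp2 lies Gbp2b, a close relative outside the 10 genes that hardly gave reads and fell, from 0.801 ± 0.073 to 0.198 ± 0.053 CPM (SD, n = 3; 76 reads at rest and 17 after stimulation over 3 libraries each; edgeR, adjusted p = 0.00055). Its promoter also holds 1 ISRE core, at chr3:142594690-142594739 on the plus strand:
Gbp2b: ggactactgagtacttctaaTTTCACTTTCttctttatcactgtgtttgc
The core of Gbp2b and that of Gbp2 have the same letters, while the genes moved in opposite directions. Their places differ: counted from the start, the core lies at -137 to -128 in Gbp2b and at -59 to -50 in Gbp2. The part of the core in either change was not tested.

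The other 4 GBP genes lie on the minus strand of chromosome 5, where Gbp4, Gbp8 and Gbp9 share about 60 bases of exon at their common start. Gbp4 (ENSMUSG00000079363, chromosome 5, 105115767 to 105139586) was at 160.5, 118 and 110 CPM at rest and 336, 264 and 310.4 CPM after stimulation. The rise was 2.34-fold (log2 fold change 1.23, SE 0.15; edgeR, adjusted p = 0.00011). Gbp9 (ENSMUSG00000029298, chromosome 5, 105077630 to 105139539) went from 69.7, 55.3 and 49.6 CPM to 184, 109 and 130 CPM, a 2.42-fold rise (log2 fold change 1.27, SE 0.21; edgeR, adjusted p = 0.00091). The highest stimulated library of Gbp9 was 1.69 times the lowest, the widest spread among the 10 genes after stimulation.

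Gbp8 (ENSMUSG00000034438, chromosome 5, 105014150 to 105139540) stood nearly level. It was at 52.1, 51.8 and 57.2 CPM at rest and 59.9, 62.0 and 66.2 CPM after stimulation, so the groups were separate but only just. The rise was 1.17-fold (log2 fold change 0.22, SE 0.07, 95% interval 0.06 to 0.39; edgeR, adjusted p = 0.0187). The call was lost with library size alone (adjusted p = 0.349), without unstimulated replicate 2 (adjusted p = 0.0863), without stimulated replicate 3 (adjusted p = 0.0599) and with replicate 2 left out of both groups (adjusted p = 0.156), over a range of 0.0046 to 0.349 for all alternatives. Within libraries the ratio of Gbp9 to Gbp8 reads was 0.867 to 1.34 at rest and 1.75 to 3.06 after stimulation.

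Gbp6 (ENSMUSG00000104713, chromosome 5, 105270702 to 105293698) had the lowest counts at rest and the largest fold rise of the 10. It was at 30.9, 19.2 and 20.02 CPM at rest and 143, 110 and 130 CPM after stimulation, a rise of 5.47-fold (log2 fold change 2.45, SE 0.20; edgeR, adjusted p = 1.1e-05). The identity of Gbp6 is less certain than that of the others: 70.7% of the 50-base stretches of its transcripts also occur in transcripts of other genes, mainly the overlapping model Gm43302. For the other 9 genes this share was between 0.379% (Irgm1) and 18.1% (Gbp8). Gbp10 is a near-copy of Gbp6, with 84.1% of its stretches found in other genes and 73.3% in Gbp6. It shares 46.3% of its exon bases with Gm43302. Gbp10 rose as well, from 5.00 ± 4.55 to 31.8 ± 7.66 CPM (edgeR, adjusted p = 0.0085). The rise of Gbp10 was 6.35-fold with all libraries and 13.3-fold without unstimulated replicate 1, and Gbp10 no longer passed when replicate 3 was left out of both groups (adjusted p = 0.0616).

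Both immunity-related GTPases lie on chromosome 11. Igtp (ENSMUSG00000078853, plus strand, 58199556 to 58207591) was the most abundant of the 10 genes. It stood at 502, 305 and 308 CPM in the unstimulated libraries and at 1104, 912 and 1015 CPM in the stimulated ones. Unstimulated replicate 1 was far above the other resting libraries, and the lowest stimulated library was 1.82 times that value. The rise was 2.72-fold (log2 fold change 1.44, SE 0.21; edgeR, adjusted p = 0.00047).

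Irgm1 (ENSMUSG00000046879, minus strand, 48861968 to 48871683) rose more steeply. It went from 144, 96.7 and 90.9 CPM to 666, 490.3 and 563 CPM, a 5.19-fold rise (log2 fold change 2.38, SE 0.20; edgeR, adjusted p = 1.7e-05). The ratio of Irgm1 to Igtp reads was 0.286 to 0.317 within resting libraries and 0.538 to 0.604 within stimulated ones. This ratio does not depend on the scaling of libraries, and it shows that the transcripts of both regulators changed unequally.

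The third gene of the regulatory branch, Irgm2, is not among the 10 and adjoins Igtp, with which it shares 162 bases of exon. Irgm2 was at 135, 85.6 and 76.5 CPM at rest and 147, 113 and 129 CPM after stimulation, so the groups overlapped. The difference was 0.39 on the log2 scale (SE 0.22, 95% interval -0.12 to 0.90; edgeR, adjusted p = 0.138), and it passed the test without unstimulated replicate 1 (0.68, adjusted p = 0.00059) and with replicate 1 left out of both groups (0.58, adjusted p = 0.0001). Over all alternatives tried for Irgm2 the adjusted p lay between 0.0001 and 0.483. The ratio of Igtp to Irgm2 reads went from between 3.57 and 4.02 at rest to between 7.49 and 8.10. Their promoters are close copies. The Irgm2 stretch, at chr11:58214882-58214942 on the plus strand, reads:
Irgm2: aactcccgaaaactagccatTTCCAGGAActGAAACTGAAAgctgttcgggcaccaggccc
Over these 61 bases it differs from that of Igtp at 2 positions, T24C and T54C (Igtp base first, counted from 1 at the 5′ end of the printed stretch). The first lies in the free middle of the GAS, and both genes keep the GAS and the ISRE core.

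**Figure D2:**
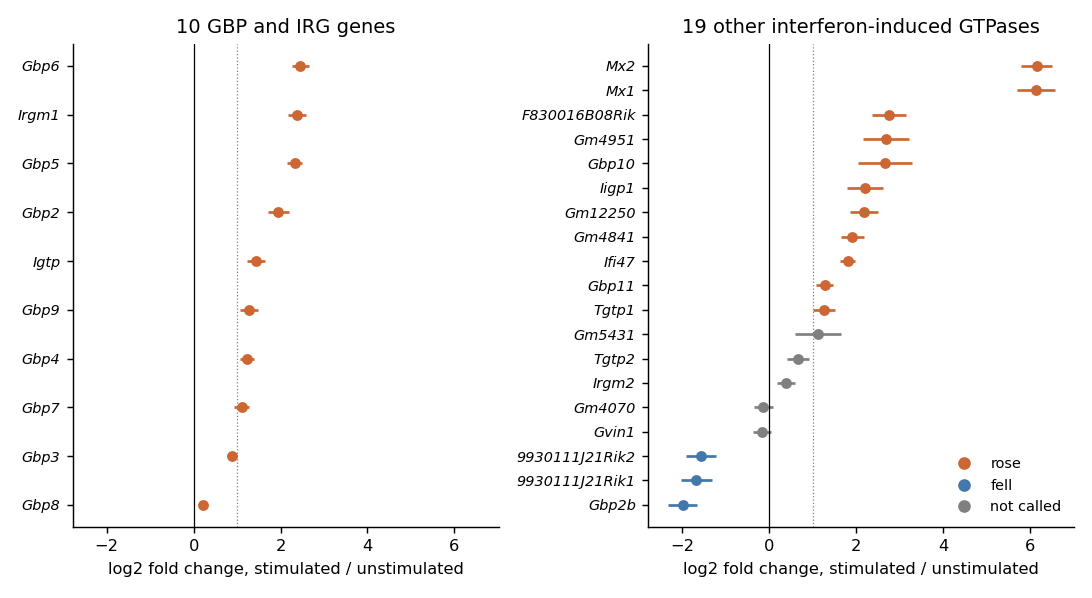
Log2 fold changes (stimulated over unstimulated, with SE as bars) of the 10 GBP and IRG genes and of 19 other interferon-induced GTPases; orange rose, blue fell and grey did not pass edgeR's test, and the dotted line marks a 2-fold rise. The 10 genes lie between 0.22 and 2.45, while the relatives run from -1.99 for Gbp2b to 6.15 for Mx1 and Mx2.

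Levels can be compared between genes only per length, here as CPM per kilobase of annotated exon. On this scale Igtp led in both groups, at 184 ± 55.9 at rest and 499.6 ± 47.5 after stimulation (SD, n = 3). Gbp2 followed at 67.6 ± 20.95 and 261 ± 50.02, and Irgm1 came next at 19.01 ± 5.00 and 98.6 ± 15.2. At rest the libraries of Irgm1, Gbp4, Gbp8, Gbp7, Gbp3 and Gbp9, in that order, overlapped from each gene to the next, with means from 19.01 down to 11.3. Gbp5 and Gbp6 were lowest, at 4.97 ± 1.03 and 3.93 ± 1.10. The place of Gbp6 is uncertain in both groups. Other genes hold 70.7% of its 50-base stretches, and 29.0% of its exon bases lie in Gm43302. Whether reads from such bases were counted for Gbp6 is not known. After stimulation Irgm1 stood clear of the genes below it. The other 7, from Gbp4 at 40.5 ± 4.90 to Gbp8 at 18.2 ± 0.927, overlapped from neighbour to neighbour. Gbp8 thus went from rank 5 at rest to rank 10, while Gbp5 and Gbp6, which had been lowest, reached 24.8 ± 3.89 and 21.5 ± 2.78.

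**Figure D3:**
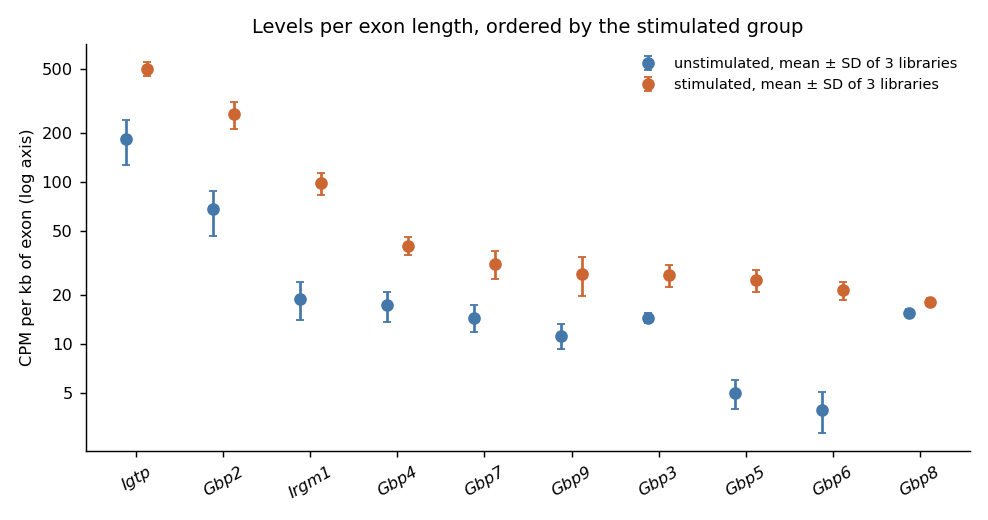
Levels of the 10 genes as CPM per kilobase of exon (log axis), mean ± SD of 3 libraries, ordered by the stimulated group; blue is unstimulated and orange stimulated. Igtp, Gbp2 and Irgm1 stand above the other genes after stimulation, which lie between 18.2 and 40.5.

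Most of the 10 genes had the same library at the edge of each group, a pattern described after the values were seen and not tested. Unstimulated replicate 1 was the highest resting library for 9 of the 10 genes, where it was so for 37.5% of all tested genes. Stimulated replicate 2 was the lowest stimulated library for the same 9, where it was so for 26.4% of all tested genes. Stimulated replicate 1 was the highest stimulated library for these 9 genes too, so replicate 1 was the highest in both groups. It was also the highest stimulated library for 18 of the 19 other interferon-induced GTPases and 18 of the 18 type I interferon-stimulated genes. The same held for 9 of 13 interferon gamma targets outside the GTPases and 10 of 16 kinases and transcription factors. It held for 3 of 7 inhibitors, 8 of 22 partners and 1 of 6 interferons and receptors. The share of all tested genes with stimulated replicate 1 highest was not counted, so these counts have no background beside them. Gbp8 was the exception in both groups. In unstimulated replicate 1 the 9 genes stood 0.11 (Gbp3) to 0.48 (Gbp2) log2 units above the group mean. Part of the interferon lists described below showed unstimulated replicate 1 as highest at rest together with stimulated replicate 2 as lowest after stimulation. Both held for 14 of the 19 other interferon-induced GTPases and for 10 of the 18 type I interferon-stimulated genes, against 10.4% of all tested genes. The B cell sum was lowest in unstimulated replicate 1 among the resting libraries, and its part in the pattern was not tested.

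**Figure D4:**
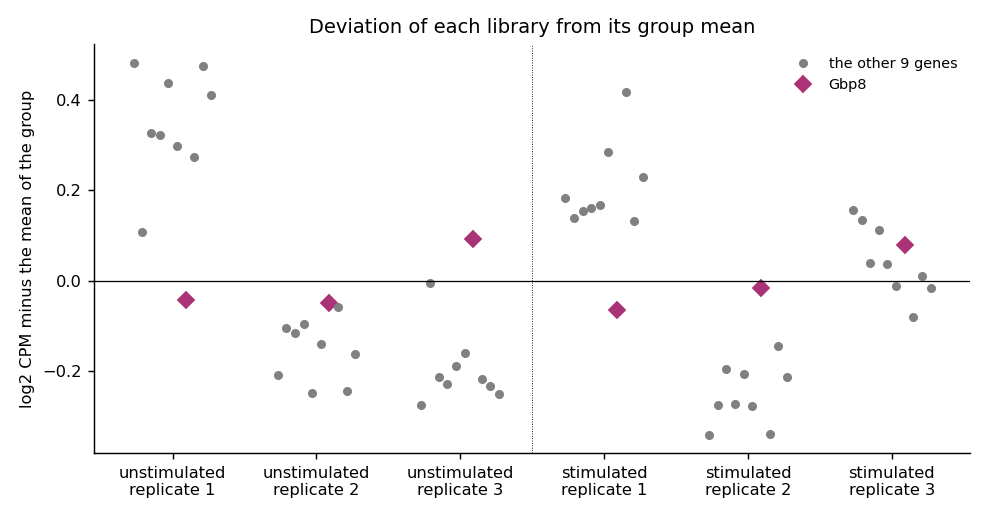
Deviation of each library from the mean of its group, in log2 CPM, for the 10 genes; each grey point is 1 gene and the diamond is Gbp8. The grey points lie above 0 in unstimulated replicate 1 and below 0 in stimulated replicate 2, while Gbp8 stays within 0.09 of its group means.

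The relatives outside the 10 genes moved less evenly. Of 20 listed interferon-induced GTPases 19 were tested, of which 11 rose, 3 fell and 5 did not pass, with a median log2 change of 1.28. Of all tested genes 38.4% rose and 39.1% fell. Irgc1, with 11 reads at rest and 14 after stimulation, was not tested. Those that rose were Gbp10, Gbp11, Iigp1, Tgtp1, Ifi47, Gm12250, Gm4951, F830016B08Rik, Gm4841, Mx1 and Mx2. GENCODE M21 lists Gbp11 and Mx2 as polymorphic pseudogenes and Gm12250 as a processed pseudogene, so a rise in their reads need not mean a working protein. The effector Ifi47 (Irgd) rose from 236 ± 53.0 to 826 ± 126 CPM (edgeR, adjusted p = 3.5e-05). The antiviral dynamin-like genes Mx1 and Mx2 went from 1.88 ± 0.386 to 133 ± 62.7 CPM and from 0.548 ± 0.081 to 39.3 ± 14.7 CPM (edgeR, adjusted p = 1.4e-05 and 1.4e-06). Besides Gbp2b, the near-copies 9930111J21Rik1 and 9930111J21Rik2 fell (edgeR, adjusted p = 0.0043 and 0.0039). The first was at 21.5 ± 8.55 CPM at rest and 6.72 ± 2.47 CPM after stimulation, and the second at 22.8 ± 6.90 and 7.69 ± 3.17 CPM. They share 83.2% and 59.8% of their 50-base stretches with other genes. The 5 that did not pass were Irgm2, Tgtp2, Gm5431 and the very large GTPase genes Gvin1 and Gm4070. Gvin1 and Gm4070 share 99.2% and 97.8% of their stretches with other genes, mainly each other, so their values are hardly separate. For Tgtp1 and Tgtp2 this share was 81.2% and 86.6%. Tgtp2 differed by 0.66 (adjusted p = 0.051), and it is a near-copy of Tgtp1, which rose by 1.27. Tgtp1 missed the threshold with replicate 3 left out of both groups (adjusted p = 0.0601), and Tgtp2 passed it without unstimulated replicate 1 (0.98, adjusted p = 0.00055). The 6.47-fold rise of Gm4951 was 11.9-fold without that library.

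Upstream of these genes, the ligand rose while most receptor chains fell. Ifng, which encodes interferon gamma, was at 0.316 ± 0.115 CPM at rest and 67.8 ± 9.68 CPM after stimulation, a log2 change of 7.72 with an SE of 0.21 (edgeR, adjusted p = 6.9e-09). The receptor chain Ifngr1 fell 12.7-fold, from 318 ± 52.5 to 25.1 ± 6.56 CPM (edgeR, adjusted p = 1.9e-06). The other chain, Ifngr2, was at 31.1 ± 3.99 and 29.5 ± 1.16 CPM (edgeR, adjusted p = 0.502). The type I receptor chains Ifnar1 and Ifnar2 fell 2.31-fold and 2.69-fold (edgeR, adjusted p = 9.3e-07 and 8.7e-07). Of 13 listed interferons and receptors 6 had enough reads, of which 1 rose and 4 fell, with a median of -0.86, beside 38.4% and 39.1% of all tested genes. The sign of this median depends on the filter on low counts. With no filter all 13 were tested, 3 rose and 5 fell, and the median was 1.93. Among the listed genes that the filter removed, Ifnb1, named after its counts were seen, had 0, 2 and 0 reads at rest and 17, 5 and 16 after stimulation.

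Of 16 kinases and transcription factors of interferon signalling 11 rose and 2 fell, with a median of 0.96. Irf8, a partner factor at composite interferon elements, rose from 21.6 ± 4.39 to 814 ± 124 CPM, and Irf7 and Batf rose 7.43-fold and 2.58-fold. Jak1 and the repressor Irf2 fell 3.16-fold and 1.72-fold. Irf1 rose from 210.0 ± 32.2 to 400.0 ± 25.9 CPM and Irf9 from 90.9 ± 15.9 to 151 ± 15.1 CPM (edgeR, adjusted p = 4.4e-05 and 0.00072). Of 7 inhibitors 4 rose and 2 fell, with a median of 0.18, beside 38.4% and 39.1% of all tested genes. Among them Socs1 rose 6.97-fold, Usp18 43.1-fold and Cish 9.20-fold, and Pias1 and Socs3 fell 2.31-fold and 1.39-fold.

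Other interferon targets also rose, by very different amounts. Of 13 tested interferon gamma targets outside the GTPases 12 rose and 0 fell, where 38.4% of all tested genes rose and 39.1% fell. The number that rose was 8 with replicate 3 left out of both groups and 9 with library size alone. The median log2 change of these targets was 0.93, below the 1.36 of the GBP and IRG genes. Cxcl10, Cd274 and Ly6a rose 345.5-fold, 21.8-fold and 1.71-fold. Cxcl10 had only 5, 11 and 5 reads at rest. Its fold ran from 269 to 544 over the fits that left out a library or a replicate number. Of 18 type I interferon-stimulated genes 17 rose and 0 fell, and their median was 4.20. Isg15, Oasl2 and Oas2 rose 112-fold, 32.0-fold and 30.5-fold. Most of these genes were scarce at rest (Isg15 at 3.29 ± 0.645 CPM), whereas each of the 10 GTPase genes was at 19.2 CPM or more in every resting library. No test compared the lists, which share some genes (Irf1, Irf7 and Usp18 among them) and were put together with earlier results of these data known.

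**Figure D5:**
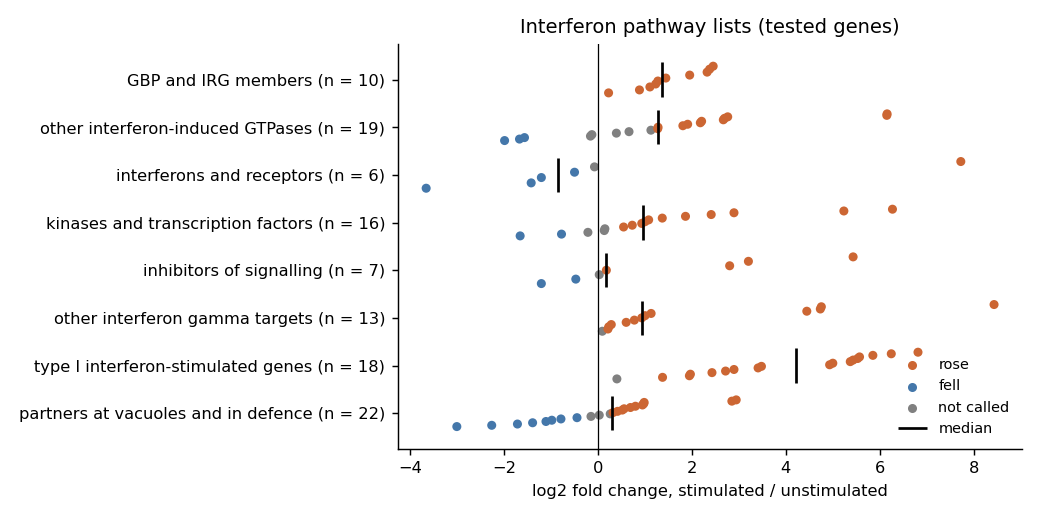
Log2 fold changes of the tested genes of each interferon list, 1 point per gene; orange rose, blue fell, grey did not pass edgeR's test, and the black bar is the median. The median was 1.36 for the GBP and IRG genes, -0.86 for interferons and receptors, and 4.20 for type I interferon-stimulated genes.

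Of 22 tested partners of these GTPases at vacuoles and in cell-autonomous defence 11 rose and 8 fell, with a median of 0.29, where 38.4% of all tested genes rose and 39.1% fell. The list as a whole thus lay near that background. Of its genes for the conjugation machinery that helps place GBPs and IRGs on vacuoles, Atg16l1, Atg5 and Atg3 rose by 0.97, 0.69 and 0.55 on the log2 scale, Atg12 fell by 0.99, and Atg7 differed by 0.02 (edgeR, adjusted p = 0.782). Of the genes for the conjugated proteins, Map1lc3b fell from 156 ± 10.9 to 47.4 ± 4.12 CPM, Gabarapl2 fell by 1.395 and Gabarap fell by 0.79. Gabarapl1 rose by 0.94, and Map1lc3a differed by -0.15 (edgeR, adjusted p = 0.485). The autophagy kinase gene Ulk1 fell from 80.0 ± 2.88 to 16.6 ± 0.622 CPM, and the autophagy receptor Calcoco1 fell 8.05-fold. Casp4, the sensor that GBPs help to engage bacterial lipopolysaccharide, rose from 8.98 ± 2.44 to 64.7 ± 9.60 CPM, and Pim1 rose 1.73-fold. Atg3, Atg5, Atg7, Atg12, Gabarap, Gabarapl1, Gabarapl2 and Map1lc3a were named after their values were seen. The adjusted p of all genes said to have risen or fallen in the last 3 lists lay under 0.05 in edgeR's test.

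Across the 6 libraries many genes followed the members' profile, because most genes differ between the groups. For the summed GBP transcripts the 5 most alike of 10736 genes with a mean of at least 1 CPM were Slc2a1, Gdpgp1, Slc4a11, Dbnl and Aptx, with Pearson's r of log2 levels from 0.995 to 0.999. For the summed IRG transcripts they were Penk, Rpe, Smpdl3b, Aptx and Atf3, with r from 0.998 to 0.999. About 32.7% of those genes had r above 0.9 with either sum. The points share their group difference, so these values only describe the profiles.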

How the data were processed

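The deposited file is a table of raw counts of reads per Ensembl gene, 1 column per library, made by the authors. The tools listed, with no role, are STAR 2.5.2a, HTSeq and DESeq2, and the build is GRCm38, per the submitters' processing notes. For the annotation release and the strand setting the sources used here give nothing. Per the labels' protocols, total RNA was prepared with a TruSeq RNA kit. Symbols and coordinates came from GENCODE M21, which matched 48058 of 48440 identifiers. Whether reads of overlapping or near-identical genes were split is not known.

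Counts were tested with edgeR 4.0.16 in R 4.3.3: TMM scaling, filterByExpr on group (13314 genes kept), a robust quasi-likelihood fit on group alone, Benjamini-Hochberg adjustment over all genes and a threshold of 0.05. The SE comes from the change and the F statistic. glmTreat tested against a log2 change of 1. The members and lists were chosen with earlier results of these data known. Of each list the 3 genes with the smallest p in either direction were to be named, with Ifng, Ifngr1, Ifngr2, Irf1, Irf8, Irf9, Socs1 and Isg15. A gene that the rule also covers is not reported here. Alternatives were RLE scaling, library size alone, library sizes without the 20 most abundant genes, all genes with no filter, genes with 1 CPM in 3 libraries or more, DESeq2 1.42.0, limma 3.58.1 with voom, a block for the replicate number, fits that leave out a library or a replicate number, and an adjusted p of 0.01. On simulated counts of 13314 genes with 200 changed, this fit recovered 72% of 100 genes changed 1.5-fold and 92% of 100 changed 2-fold. It also called 10 unchanged genes, 5.75% of the calls. In the data 38.4% of tested genes rose and 39.1% fell, far more than were changed in the simulation. The simulated shares therefore do not measure recovery in these data. Protein sequences were not used here.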

Additional observations from a re-analysis of the deposited data

How the results depend on the processing

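Of 18 alternatives, 13 kept all 10 genes among those that rose and 5 kept 9, with Gbp8 as the gene lost. None of the 10 changed direction. The number changed by more than 2-fold was 5 with all libraries and ranged from 3 to 8 over the fits that left out a library or a replicate number, with 8 without unstimulated replicate 1 and 3 without replicate 3. Among 49 other named genes, 9 changed a call or a direction under at least 1 alternative. Those that turned direction had not passed the test: Gvin1 ranged from -0.30 to 0.11 over these fits, Gm4070 from -0.27 to 0.17 and Ifngr2 from -0.20 to 0.049. Gvin1 was at 0.11, Gm4070 at 0.17 and Ifngr2 at 0.014 without unstimulated replicate 1, and Gm4070 was at 0.12 and Ifngr2 at 0.049 without replicate 1. Tgtp1 was lost without replicate 3 (adjusted p = 0.0601). Tgtp2 passed under 7 alternatives and Gm5431 under 3, the replicate block among them for both.

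The labels do not say that equal replicate numbers share a mouse or day. The deviations of same-numbered libraries correlated at 0.361, 0.0845 and 0.38 for replicates 1, 2 and 3, and each library correlated best with its own number, which is a hint from the data and not from the design. With the replicate block 5326 genes rose and 5516 fell, against 5113 and 5207 without it, 10 of the 10 GTPase genes rose, and 7 of them in place of 5 passed the 2-fold test. Irgm2 (adjusted p = 0.0101), Tgtp2 (adjusted p = 1.7e-05) and Gm5431 (adjusted p = 0.0465) passed with the replicate block and not without it. Each group has 3 libraries, so their spread is poorly known. With 608 to 31142 reads per gene and library, counting error is a small part of it.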
